A study of Mus musculus with 1 sample.

Results

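The Hox genes encode homeodomain transcription factors that assign position along the body axis. In the mouse they lie in 4 clusters, Hoxa to Hoxd, and were taken here as every row whose symbol was Hoxa, Hoxb, Hoxc or Hoxd followed by a number. This gave 39 genes of 23282 rows, with 11 genes in Hoxa, 10 in Hoxb, 9 in Hoxc and 9 in Hoxd. The data were 1 RNA-seq library of glial cells derived from the ventral midbrain (VM) of outbred ICR (CD-1) mice at postnatal day 5. The title places it in the control group of a study on inhibition of SGK1 (serum- and glucocorticoid-regulated kinase 1), in which control glia received the solvent DMSO. The cells were dissociated midbrain grown in serum-containing medium and passaged with trypsin, so they were a mixed culture and not a sorted cell type. How many pups were pooled is not given in the sources used here. Inhibitor-treated glia were not analysed here, and with no replicate none of the values below has an error between cultures or a test.

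Hox genes of the same number in different clusters are paralogs, descended from a shared ancestral gene. Within a cluster, low numbers lie at the 3′ end and are used in the hindbrain and neck, and high numbers lie at the 5′ end and are used in the trunk, limbs and tail. This match between gene order and body position is called collinearity. In the central nervous system, Hox genes are known from the hindbrain and spinal cord. The midbrain and forebrain develop in front of the Hox domain and are marked by other homeodomain factors such as OTX2 and the engrailed proteins.

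Hoxd11 stood apart from all other members. Its normalised read count was 3198, and the next highest was Hoxb9 at 174. The counts of the other 38 genes together came to 556, so Hoxd11 alone had 5.75 times the count of the remaining family. The genes directly beside it in the cluster were at 0 (Hoxd12) and 3 (Hoxd10). To show the sequence at the starts of neighbouring genes whose counts differ this much, the 250 bases upstream of each annotated start of these 3 genes are given from RefSeq (GRCm38.p6, plus strand, 5′ to 3′). Capitals mark matches on either strand to 3 short motifs of promoters, none of which contains another. The TATA box was searched as TATAAA. The CCAAT box was searched by the letters of its name. The GC box was searched as GGGCGG.
Hoxd12 (chr2:74674763-74675012): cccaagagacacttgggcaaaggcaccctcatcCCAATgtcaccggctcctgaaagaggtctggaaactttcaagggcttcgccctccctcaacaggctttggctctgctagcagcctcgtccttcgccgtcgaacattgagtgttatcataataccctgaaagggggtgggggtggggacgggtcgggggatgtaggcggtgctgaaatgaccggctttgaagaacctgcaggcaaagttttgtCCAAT
Hoxd11, upstream start (chr2:74679308-74679557): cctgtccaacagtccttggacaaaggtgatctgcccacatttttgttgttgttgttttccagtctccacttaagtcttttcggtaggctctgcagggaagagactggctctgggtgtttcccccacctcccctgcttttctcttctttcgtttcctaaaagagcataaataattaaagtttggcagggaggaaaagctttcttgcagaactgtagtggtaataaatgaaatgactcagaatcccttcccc
Hoxd11, downstream start (chr2:74682073-74682322): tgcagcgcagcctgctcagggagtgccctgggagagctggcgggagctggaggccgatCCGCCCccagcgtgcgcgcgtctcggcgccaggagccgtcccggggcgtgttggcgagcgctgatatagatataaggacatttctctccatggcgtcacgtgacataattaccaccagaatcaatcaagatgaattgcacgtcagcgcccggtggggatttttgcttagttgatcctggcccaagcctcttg
Hoxd10 (chr2:74691641-74691890): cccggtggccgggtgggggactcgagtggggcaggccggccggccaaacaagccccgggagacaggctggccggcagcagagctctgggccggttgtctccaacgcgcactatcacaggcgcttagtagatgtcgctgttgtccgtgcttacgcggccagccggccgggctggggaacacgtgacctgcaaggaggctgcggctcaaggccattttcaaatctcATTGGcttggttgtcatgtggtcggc

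The upstream Hoxd11 window held 2 CpG dinucleotides and no match to any of the 3 motifs. The downstream window, which lies in an intron of the longer Hoxd11 transcript, held 20 CpG dinucleotides and 1 GC box. Hoxd10, at a count of 3, also had 20 CpG dinucleotides, together with 1 CCAAT box, and Hoxd12, at 0, had 10 CpG dinucleotides and 2 CCAAT boxes. Such windows were held for 22 of the 39 Hox genes (24 windows). Their CpG number ranged from 2 to 35 with a median of 12.5, against a median of 6 over all 32851 windows of the RefSeq set. A TATA box was present in 4 of the 24 Hox windows (12.4% of all windows), a CCAAT box in 14 (33.8%) and a GC box in 10 (32.7%). The table gives 1 value per gene, so it does not say which of the Hoxd11 starts the reads came from.

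Of the 39 Hox genes, 10 (25.6%) had a count of 10 or more and are called detected here, against 67.2% of all rows. Another 16 were at 1 to 9, and 13 (33.3%) were listed at 0, against 21.8% of all rows. At a minimum of 1 the members detected were 26 (78.2% of all rows), and at a minimum of 3 they were 19 (73.9% of all rows). A count of 100 or more was reached by 3 members (7.69%), against 51.6% of all rows, and 1000 or more by Hoxd11 alone, against 21.5% of all rows. The median Hox count was 2, and the median over all rows was 119. Just inside the limit of 10 were Hoxb3 and Hoxc9, both at 11, and just outside it were Hoxa3 at 9 and Hoxb2 at 8.

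**Figure D1:**
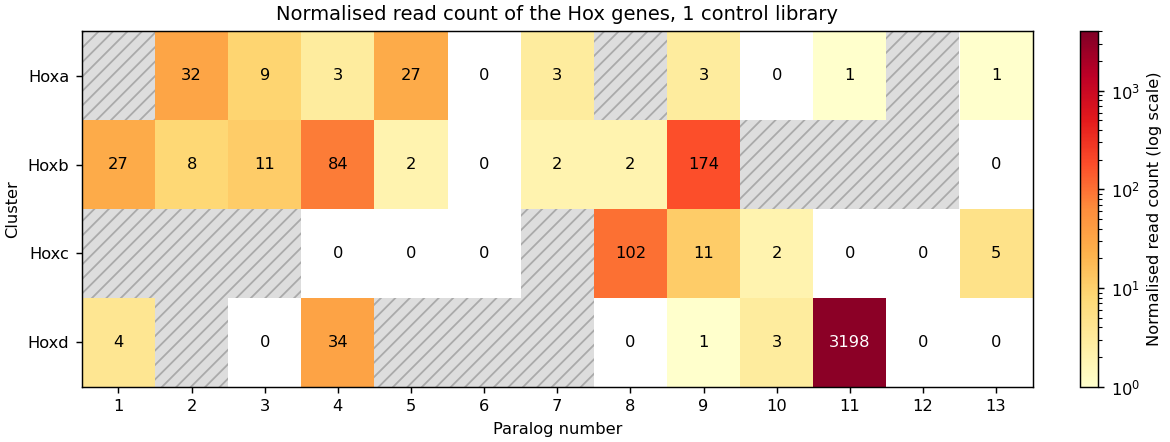
Normalised read count of each Hox gene in the control library, with clusters in rows and paralog numbers in columns. Colour follows the count on a log scale, white cells are listed at 0 and hatched cells are positions with no gene in the mouse or not shown. Hoxd11 is the only dark cell, at 3198, and detected genes are scattered over the clusters.

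Because genes differ in length, levels of different genes were compared as the normalised read count per kilobase of annotated exon, called the level per kb below. The exons of the 39 genes span 874 to 6014 bases each. The level per kb of Hoxd11 was 759, above 91.9% of all rows matched to the annotation. Hoxb9 followed at 67.6 per kb, Hoxc8 at 36, Hoxb4 at 32.7, Hoxa2 at 18, Hoxa5 at 14.4, Hoxb1 at 11.6 and Hoxd4 at 11.5. Hoxc9 was at 4.53 per kb and Hoxb3 at 2.59. The median over all matched rows was 31.0 per kb, and 4 Hox genes exceeded it. Hoxd11 was 11.2-fold above Hoxb9 on this scale. Neighbours further down the order differed less. Hoxc8 was 1.10-fold above Hoxb4, and the spread needed to say whether such neighbours differ is not available from 1 library.

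**Figure D2:**
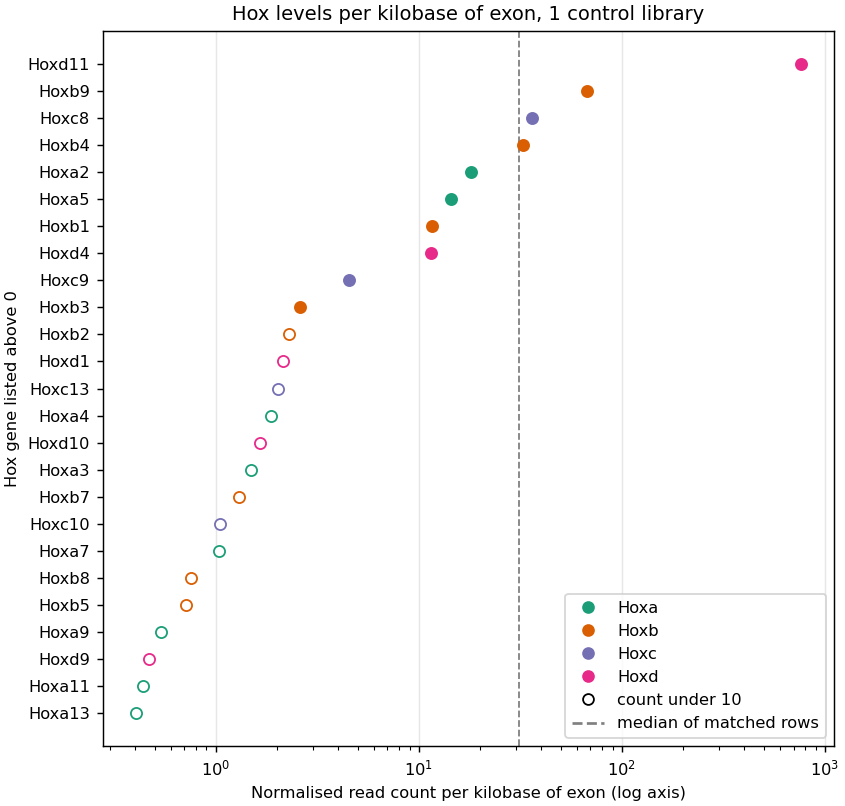
Level per kilobase of exon of Hox genes listed above 0, on a log axis, coloured by cluster. Open circles have a count under 10, and the dashed line is the median of all matched rows (31.0). Hoxd11 lies far to the right, Hoxb9, Hoxc8 and Hoxb4 lie nearer to the line on its right, and the other genes lie left of it.

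Paralog groups 1 to 4 pattern the hindbrain and the neural crest that leaves it. Of their 12 genes 5 were detected, against 67.2% of all rows. Hoxb4, known also for its action in blood stem cells, had the highest count of these at 84. Its relative Hoxd4 was at 34, Hoxa4 at 3 and Hoxc4 at 0. Hoxa2, the most anteriorly expressed Hox gene of the hindbrain and a selector of second branchial arch identity, was at 32, and its paralog Hoxb2 at 8. Hoxb1, which marks a single hindbrain segment in the embryo, was at 27. Its paralog Hoxd1 was at 4. In group 3, Hoxb3 was at 11, Hoxa3 at 9 and Hoxd3 at 0. Each of these groups therefore held at least 1 detected gene, but none had all its members detected.

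Central groups 5 to 8 pattern the neck and the thorax, and 2 of their 11 genes were detected (67.2% of all rows). Hoxa5, which is required in lung and neck development, was at 27, with Hoxb5 at 2 and Hoxc5 at 0. The 3 genes of group 6, Hoxa6, Hoxb6 and Hoxc6, were all listed at 0. In group 7, Hoxa7 was at 3 and Hoxb7 at 2. Hoxc8, a gene of the thoracic region, was at 102, while its paralogs Hoxb8 and Hoxd8 were at 2 and 0. The level in these groups was thus carried by single genes, with Hoxc8 holding most of it.

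Posterior groups 9 to 13 act in the lower trunk, limbs, urogenital tract and tail. Of their 16 genes 3 were detected, against 67.2% of all rows. In group 9, Hoxb9 was at 174 and Hoxc9 at 11, with Hoxa9 at 3 and Hoxd9 at 1. In group 10, Hoxd10 was at 3, Hoxc10 at 2 and Hoxa10 at 0. Hoxd11, which together with Hoxa11 forms the forearm and the kidney, was at 3198, whereas Hoxa11 was at 1 and Hoxc11 at 0. No gene of groups 12 and 13 was detected. Both group 12 genes, Hoxc12 and Hoxd12, were at 0, Hoxc13 was at 5, Hoxa13 at 1, and Hoxb13 and Hoxd13 were at 0. Of the 13 paralog groups, 8 had a detected member, and groups 4 and 9 had more than 1.

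Summed as levels per kb, the Hoxd cluster held 79.2% of the family, Hoxb 12.2%, Hoxc 4.46% and Hoxa 4.13%. Groups 9 to 13 held 85.6%, groups 1 to 4 held 8.84% and groups 5 to 8 held 5.54%. These shares rest on Hoxd11, which alone held 77.6%. Without it, Hoxb held 54.5%, Hoxc 19.9%, Hoxa 18.4% and Hoxd 7.20%, and the paralog ranges became 39.4% for groups 1 to 4, 24.7% for groups 5 to 8 and 35.9% for groups 9 to 13. The whole family amounted to 136 per 1000000 of the sum of all counts, and to 20.2 per 1000000 without Hoxd11.

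Of 35 pairs of neighbouring Hox genes in the same cluster, 2 had both members detected, Hoxb3 with Hoxb4 and Hoxc8 with Hoxc9. The same share over all neighbouring genes was not computed. With 10 of the 39 genes detected, the number of pairs was not read as a result about gene order. In Hoxa the detected genes were numbers 2 and 5, in Hoxb numbers 1, 3, 4 and 9, in Hoxc numbers 8 and 9, and in Hoxd numbers 4 and 11. Hoxb9 was separated from Hoxb4 by Hoxb5 to Hoxb8, which were at 0 to 2. In none of the 4 clusters did the count rise or fall steadily with the paralog number. A graded positional order was not seen in this library, but 29 of the 39 genes were under 10, which leaves little to show one.

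Hoxd11 lies on chromosome 2 (74679557 to 74687016, GRCm38, plus strand). GENCODE lists 2 transcripts for it, a longer noncoding one that begins at the upstream start and a coding one that begins at the downstream start, with exons of 4212 bases in union. Of these bases, 455 (10.8%) are shared with Gm28309, a noncoding transcript on the same strand that has no row in the table. No exon on the opposite strand overlaps Hoxd11. With its whole count divided by the 3757 bases free of that overlap, its level was 851 per kb. Gm28309 also shares 104 bases (5.73%) of the exons of Hoxd10. Reads could also be shared through similar sequence elsewhere, so 36-base stretches of the annotated transcripts were compared. Of 4133 distinct stretches in Hoxd11, 8 occurred exactly in a transcript from another chromosome. At least 1 such stretch was present in 13 of the 39 Hox genes, against 46.6% of all matched rows, and at most 2.03% of a Hox gene's stretches were shared (Hoxa6). Other transcripts of the same chromosome, genomic sequence outside annotated transcripts and near-exact matches were not compared.

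The region around Hoxd11 was read out to the next genes. Within the cluster, Hoxd13, Hoxd12, Hoxd8 and Hoxd3 were at 0, Hoxd9 at 1, Hoxd10 at 3, Hoxd1 at 4 and Hoxd4 at 34. The antisense gene Hoxd3os1 and the noncoding Haglr, which starts beside Hoxd1, were at 0. Evx2, a homeobox gene that adjoins the 5′ end of the cluster, was also at 0. Beyond it, Lnp, which encodes the endoplasmic reticulum protein lunapark, was at 36.6 per kb, and Mtx2, a mitochondrial import gene on the 3′ side, was at 250 per kb. Hoxd11 was 20.7-fold above Lnp and 3.04-fold above Mtx2 per kb. Lnp and Mtx2 were named after their values were seen. Among protein-coding genes with a count of 1000 or more, 138 of 4886 (2.82%) had both neighbours along the chromosome under 10, and Hoxd11 was one of them, ranking 52 by count.

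**Figure D3:**
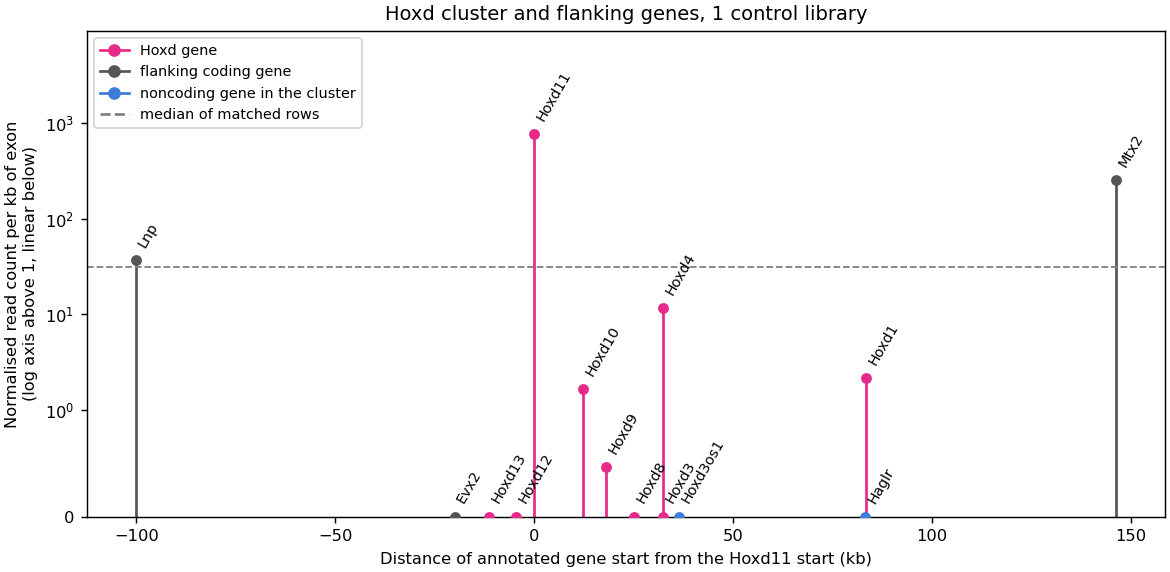
Level per kilobase of exon of the Hoxd genes, flanking coding genes and noncoding genes of the cluster, against the distance of each annotated start from the Hoxd11 start in kilobases. The vertical axis is logarithmic above 1 and linear below, and the dashed line is the median of matched rows (31.0). Hoxd11 (759) rises alone between genes at 0 to 11.5, with Lnp (36.6) and Mtx2 (250) outside the cluster.

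The next genes in the order were checked for overlaps in the same way. Hoxb9 (chromosome 11, 96271457 to 96276595), Hoxb4 (chromosome 11, 96318267 to 96321638), Hoxb1 (chromosome 11, 96365752 to 96368256), Hoxc8 (chromosome 15, 102990607 to 102994111), Hoxc9 (chromosome 15, 102976439 to 102985099) and Hoxa5 (chromosome 6, 52201754 to 52204587) have no exon in common with another annotated gene. These are 6 of the 10 detected genes. Hoxd4 shares 52.3% of its exon bases with Hoxd3 or Gm28230 on the same strand, and Hoxd3, listed at 0, shares 62.3% of its own. Divided by its bases free of same-strand overlap, the count of Hoxd4 gave 24.2 per kb in place of 11.5, which placed it above Hoxa2 (21.2 per kb on the same basis) and Hoxa5 (14.4). Hoxb3 shares 52.9% with Hoxb3os on the opposite strand, and Hoxa2 shares 15% with Gm28308 on the same strand. The strand setting of the counting is not stated, so reads in shared exons could belong to either gene, and for Hoxd3 and Hoxd4 they could have been dropped as ambiguous.

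The clusters also contain noncoding genes, of which 9 had a row, and 2 of the 9 were detected (67.2% of all rows). Hoxaas2, which lies beside Hoxa2 on the opposite strand, was at 31, close to the count of 32 for Hoxa2, with which it shares no exon. Its exons do overlap those of Hoxa3, which was at 9, on the opposite strand. Hotairm1, a noncoding gene at the 3′ end of the Hoxa cluster, was at 19. Hotair, the noncoding RNA of the Hoxc cluster, was at 5 and Hoxa11os at 1. Hoxaas3, Gm53, Hoxb5os, Hoxd3os1 and Haglr were at 0. The 7 microRNA genes annotated inside the clusters had no row. The 3 nearest protein-coding genes with a row on each side of each cluster gave 24 genes. Of these, 22 were detected, against 67.2% of all rows. The median count of the 24 was 1084, and the highest were Hnrnpa3 at 15316, Tax1bp1 at 6103 and Atp5g3 at 4429. The 2 at 0 were Evx1 and Evx2, the homeobox genes that end the Hoxa and Hoxd clusters.

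Hox proteins bind DNA together with the TALE homeodomain proteins of the PBX, MEIS and PKNOX families. All 9 of these cofactor genes were detected (67.2% of all rows), with a median count of 588. Per kb, Meis3 was at 355, Pbx2 at 248, Meis1 at 78.0, Pbx3 at 60.6, Pbx4 at 58.6, Pknox1 at 53.7, Meis2 at 48.8 and Pknox2 at 6.48. The level of Hoxd11 was 2.14-fold that of Meis3, and every other Hox gene lay below 8 of the 9 cofactors, apart from Hoxb9, which lay between Meis1 and Pbx3. The ParaHox genes, evolutionary sisters of the Hox clusters, were not detected, whereas 67.2% of all rows were. Cdx2 was at 1, and Cdx1, Cdx4, Gsx1, Gsx2 and Pdx1 were at 0. Cdx proteins are activators of central and posterior Hox genes in the embryo.

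Hox clusters outside their domain are held silent by Polycomb complexes, and trithorax proteins counteract this. All 11 genes of the Polycomb repressive complex 2 list were detected (67.2% of all rows), with a median count of 986. The methyltransferase genes Ezh2 and Ezh1 were at 169 and 84.1 per kb, and the core subunits Eed and Suz12 at 258 and 229 per kb. The histone-binding subunits Rbbp7 and Rbbp4, which also serve other complexes, were highest at 2124 and 521 per kb. All 12 Polycomb repressive complex 1 genes were detected, against the same 67.2% of all rows, with a median count of 660.5. The ubiquitin ligase genes Rnf2 and Ring1 were at 188 and 152 per kb and Bmi1 at 228 per kb. Of the chromobox genes, Cbx6 was at 91.2 per kb, while Cbx8, Cbx7 and Cbx2 were lower at 20.7, 11.7 and 7.52 per kb. All 11 trithorax and demethylase genes were detected as well (67.2% of all rows), with a median count of 1133. The methyltransferase gene Kmt2a, known for keeping Hox genes active, was at 62.5 per kb, its partner Men1 at 258, Psip1 at 739 and the H3K27 demethylase gene Kdm6b at 537 per kb.

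Retinoic acid is the classical inducer of anterior Hox genes. Of 18 genes of its pathway 16 were detected (67.2% of all rows), with a median count of 306.5. Among the highest were the retinaldehyde reductase gene Dhrs3 at 7814 and the receptor gene Rxra at 2334. The receptor gene Rarb, itself induced by retinoic acid, was at 1242, and Stra6, the retinol uptake receptor, was at 5. The synthesis gene Aldh1a1 was at 907, Aldh1a2 at 31 and Aldh1a3 at 33. Of the degrading enzyme genes, Cyp26a1 was at 161, Cyp26b1 at 149 and Cyp26c1 at 0. Rarb, Stra6 and the Aldh1a and Cyp26 genes other than Cyp26c1 were named after their values were seen.

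Other transcription factors with regional expression were set beside the Hox genes. Of 10 midbrain and isthmus factors 9 were detected (67.2% of all rows), with a median count of 67.5. En1 was at 98.7 per kb, En2 at 56.2, Foxa1 at 33.4 and Otx2 at 23.7, followed by Pax8 at 14.7, Lmx1a at 13.5, Foxa2 at 8.44, Lmx1b at 7.99 and Pax2 at 5.18 per kb. Pax5 was at 0. Hoxd11 was 7.69-fold above En1 and 32-fold above Otx2, whereas Hoxb9 lay between En1 and En2. Of 8 forebrain factors 6 were detected, against the same 67.2% of all rows, with a median count of 127.5. Nkx2-1, a factor of the hypothalamus and ventral telencephalon, was highest at 2521 per kb, 3.32-fold above Hoxd11. Six3 was at 239, Lhx2 at 45.5, Dlx2 at 19.3 and Emx2 at 16.3 per kb, with Dlx1 at a count of 2 and Emx1 at 0.

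Of 10 hindbrain and spinal cord factors outside the clusters, 4 were detected (67.2% of all rows), with a median count of 4. Of these, Gbx2 was at 102, Egr2 at 85.1 and Phox2a at 8.85 per kb. Atoh1 was at a count of 8, and Ptf1a, Fev, Mnx1 and Lhx3, which mark neurons of the hindbrain and spinal cord, were at 0. The 10 mesenchymal factors were included because mesenchymal cells keep Hox codes of their own. Of these 10, 9 were detected, against 67.2% of all rows, with a median count of 449.5. Twist1 was at 818 per kb, Meox1 at 758, Prrx2 at 262, Prrx1 at 155, Tbx18 at 131, Foxc1 at 65.9, Twist2 at 23.6, Foxc2 at 13.9 and Tbx15 at 2.94 per kb, and Meox2 was at 0. The levels of Hoxd11 and Meox1 were almost equal at 759 and 758 per kb, while their counts were 3198 and 1689. This pair was set side by side after the values were seen.

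**Figure D4:**
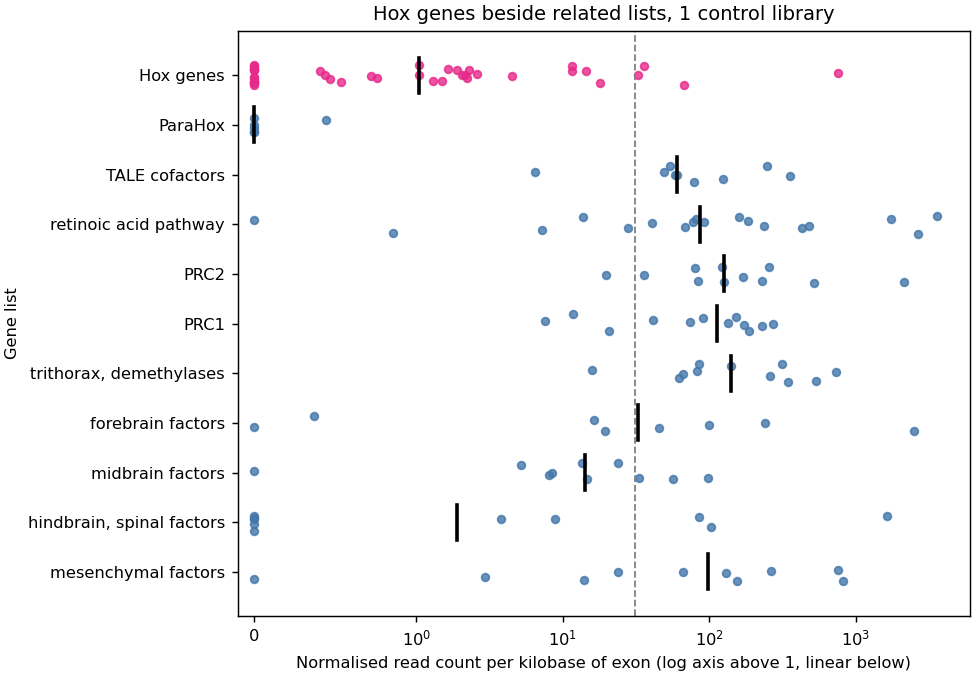
Level per kilobase of exon of the 39 Hox genes and of related gene lists, 1 point per gene, with the list median as a black bar and the median of all matched rows as a dashed line (31.0). The axis is logarithmic above 1 and linear below. Most Hox genes lie near 0, while the cofactor, Polycomb and trithorax lists lie mostly right of the dashed line.

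The cell types of the culture bear on which cells the counts can come from. All 6 astrocyte markers (counts of 1850 to 17222), all 6 microglia markers (984 to 32619) and all 6 mesenchymal markers (455 to 26499) were detected. The share detected over all rows was 67.2%. The 6 oligodendrocyte lineage markers ran from 48 to 16349 and the 6 ependymal markers from 14 to 3173. Of 6 neuron markers 4 were detected, against 67.2% of all rows. Stmn2 was at 3802, Tubb3 at 124, Snap25 at 86, Rbfox3 at 20, Syt1 at 6 and Slc17a6 at 0. Of 6 endothelial markers 4 were detected, against the same 67.2% of all rows. Flt1 was at 2427, Kdr at 119, Cdh5 at 43, Pecam1 at 33, Cldn5 at 3 and Tek at 0. Of 6 skeletal muscle markers 2 were detected, again against 67.2% of all rows. Acta1 was at 198 and Pax7 at 21. Myod1 was at 5, Myf5 at 4, Ckm at 1 and Myog at 0. In bulk RNA, few cells with a high level and many cells with a low level cannot be told apart, and which cell type carried Hoxd11 or any other Hox gene was not tested.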

How the data were processed

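One control library of VM glia was used, made with a SMARTer kit. The study's methods describe trimming of bases below quality 20, mapping with STAR to GRCm38/mm10, and HTSeq-count over the exons of RefSeq Release 105. The submitters' processing notes also name TopHat and edgeR, without their role. The deposited values, whole numbers that the authors call normalised read counts, were treated as a score because how they were normalised is not given in the sources used here. The same holds for the strand setting and multi-mapped reads. The values summed to 27569507. The number of sequenced reads is unknown, so no interval or detection floor is given.

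Of the 23282 rows, 22899 (98.4%) were matched by symbol or older symbol to GENCODE M21 (GRCm38), which is not the release the authors counted on. Each value was divided by the union of annotated exons. A gene at 10 or more was called detected. Promoter windows came from RefSeq (GRCm38.p6), with the 50 bases after the start left out. Comparison of 36-base stretches and the neighbour count were tested on simulated data, and both were added after the values were seen. Hox genes are named one by one. Some genes are not reported here. Lists of up to 12 genes may be named in full, and longer ones by their 3 highest genes, their lowest and those at 0. The members and lists were chosen with earlier results of these data known. Alternatives were other minima, other lengths, other totals and leaving out the highest gene. Python 3.11.15, numpy 2.4.6, pandas 2.3.3 and matplotlib 3.10.9 were used.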

Additional observations from a re-analysis of the deposited data

How the results depend on the processing

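Of 83 alternative values computed for 30 results, 31 stayed as given (counts within 1.5 times, other values equal to 3 digits) and 52 moved. No paired analysis was possible because there is 1 library. Hoxd11 was the highest Hox gene under each setting that kept it, at 3198 without division by length and at 851 per kb over exons free of same-strand overlap. The number of detected Hox genes was 26 at a minimum of 1, 19 at 3 and 3 at 100.

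The shares of Hoxa, Hoxb, Hoxc and Hoxd were 2.24%, 8.26%, 3.20% and 86.3% without division by length, 4.03%, 11%, 4.02% and 80.9% over exons free of overlap, 3.65%, 10.3%, 4.52% and 81.5% with the longest transcript, 3.38%, 12%, 4.23% and 80.4% over detected genes, and 18.4%, 54.5%, 19.9% and 7.20% without Hoxd11. The shares of groups 1 to 4, 5 to 8 and 9 to 13 were 5.78%, 3.68% and 90.5% without division by length, 7.81%, 5.46% and 86.7% with the longest transcript, 7.98%, 5.26% and 86.8% over detected genes, and 39.4%, 24.7% and 35.9% without Hoxd11. Over exons free of overlap the first 2 were 9.43% and 4.99%. These shifts follow from the lengths or genes that each setting uses.

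At a minimum of 1 the lowest detected number became 1 in Hoxd, and the highest became 13 in Hoxa and in Hoxc. At a minimum of 100 the lowest became 9 in Hoxb and 11 in Hoxd, and the highest became 8 in Hoxc, while no Hoxa gene was left. The family was at 139 per 1000000 without Rn45s and at 157 without the 10 highest genes. At a minimum of 1 (78.2% of all rows), detected members were 1 ParaHox gene and 4 noncoding genes of the clusters. At 100 (51.6% of all rows) they were 4 midbrain factors and 0 noncoding genes. The lack of a replicate and the unknown depth limit all these values to this library.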

Other observations

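Of the 138 highly counted genes whose neighbours along the chromosome were both under 10, the highest were Rpl26 at 75110, Ctss at 73268, Cst3 at 40346, B2m at 30773 and Pigr at 29825, and Hoxd11 held place 52. These genes were named after their values were seen.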
